A study of Homo sapiens with 6 samples.

Results

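The integrated stress response (ISR) converges on phosphorylation of eIF2α, which lowers general translation and favours translation of ATF4 through upstream open reading frames in its leader. ATF4 and its partners are basic leucine zipper (bZIP) factors, which bind DNA as dimers, so the set of partners present in a cell shapes which sites are bound. ATF3 and DDIT3 (which encodes CHOP) are transcribed downstream of ATF4, and ATF3 is also a well-known target of stress-activated MAP kinases. The genes described here are 10 of the 63643 rows of the count table, taken by exact symbol, and all 10 were among the 23109 rows tested: the CREB/ATF factors ATF4, ATF3 and ATF5, the C/EBP factors DDIT3, CEBPB and CEBPG, the AP-1-related factors JDP2 and BATF3, the pseudokinase gene TRIB3 and the bZIP regulator gene CREBRF.

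Polyadenylated RNA was sequenced from HEK293T, a widely used cell line of human embryonic kidney origin, labelled here as deleted for GLO1, the glyoxalase that begins detoxification of methylglyoxal (MGO). The MGO group (3 libraries) received 60 µM MGO, a reactive by-product of glycolysis, for 4 h according to the treatment label; the names of these libraries also hold a number whose meaning is not given. The Control group (3 libraries) was left untreated and is labelled with the same deletion. The labels do not say whether the deleted line is a single clone, which part of GLO1 is missing, or whether replicates came from separate cultures, so the p-values measure only the spread between these libraries, which may be technical. The comparison asks whether MGO changes transcripts of the ISR in this line.

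MGO libraries held 128270160 to 138680220 counts in total, and Control libraries 117427883 to 157639431. GLO1 kept counts in all libraries, at 102 ± 4.53 CPM in MGO and 37.3 ± 0.885 CPM in Control (SD, n = 3 each), which checks neither the deletion nor the group labels. Here CPM is counts per 1000000 after TMM scaling, and ± gives the SD over 3 libraries unless named as a standard error (SE). The libraries of the 2 groups differed broadly: 79.3% of all genes tested passed the threshold in either direction, and mitochondrial genes took 12.6 to 14.7% of counts in MGO and 5.32 to 5.55% in Control. Fold changes also followed transcript length, with a median log2 fold change of 0.53 for genes with transcripts under 1 kb and −1.17 for those over 4 kb. Summed epithelial markers stood at 1658 to 1895 CPM in MGO and 610 to 641 CPM in Control, carried mainly by KRT8, KRT18 and KRT19, whereas the epithelial marker CDH1 fell (log2 fold change −1.56). Fibroblast markers summed to 5.32 to 5.83 CPM in MGO and 14.3 to 15.5 CPM in Control, carried by COL1A1 (−1.70), whereas LUM rose (0.63). Blood and endothelial markers each summed to at most 1.87 CPM in any library. The part of these shifts in the results below was not tested. In bulk RNA, fewer cells expressing a gene and less RNA per cell cannot be told apart.

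RefSeq transcription starts (GRCh38.p14) were found for 9 of the 10 genes; BATF3 was not matched. The 250 bases before each start were searched on both strands for a CRE-like site bound by CREB/ATF factors (TGACNTCA), the composite C/EBP-ATF site of ATF4 targets called CARE (TGATGNAA), the AP-1 site (TGANTCA), the ER stress element (CCAAT and CCACG with 9 bases between) and the CArG box of serum response genes. The CARE was found at 3 of the 9 genes (ATF3, CEBPG and JDP2) and at 3.89% of all genes in the table. It stood at start 1 of 2 for ATF3, start 2 of 2 for CEBPG and start 2 of 3 for JDP2. A gene with more starts has more windows for a match, and the share over all genes covers 35116 windows of 27305 genes. The members' share was not adjusted for their number of starts. The CRE-like site was found at ATF3 alone among the 9, against 8.29% of all genes, and the AP-1 site at DDIT3 and ATF5, against 8.06%. Both ATF3 matches stood before start 1 (first base 212565407), and the window of start 2 (212615018) held none. Counts per gene do not show which start the ATF3 reads came from, and starts missing from the RefSeq set used were not searched. No member window held an exact match to the ER stress element (0.09% of all genes) or the CArG box (1.44%). The DDIT3 window does hold CCAAT and CCACT with 9 bases between, which differs from the searched element in its last letter. Inexact matches and sites outside these windows were not searched. Annotated exons of the same gene covered all 250 bases of both ATF4 windows. They covered 204 bases of the ATF5 window with the AP-1 site, which lies past the annotated gene start at 49928702. In the matched windows of ATF3, CEBPG and JDP2 they covered 73, 33 and 78 bases. These matches describe the letters in the windows and show no binding. The 30-base stretches around the matched letters, which are in capitals, are shown because the CARE stands before a gene that rose (ATF3), a gene that did not pass the threshold (CEBPG) and a gene that fell (JDP2):
ATF3 CRE-like (chr1:212565273-212565302, plus strand): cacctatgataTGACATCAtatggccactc
ATF3 CARE (chr1:212565205-212565234, plus strand): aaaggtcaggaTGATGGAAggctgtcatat
CEBPG CARE (chr19:33374060-33374089, plus strand): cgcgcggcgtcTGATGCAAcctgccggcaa
JDP2 CARE (chr14:75427992-75428021, plus strand): tatatagccggggcTGATGCAAcccgtccc
ATF5 AP-1 (chr19:49928706-49928735, plus strand): gggagagtgctgTGACTCAtgctggactct
The whole 250-base window of DDIT3 is given because none of it lies in an annotated exon and its AP-1 site, in capitals, is the only exact match:
DDIT3 (chr12:57520518-57520767, minus strand): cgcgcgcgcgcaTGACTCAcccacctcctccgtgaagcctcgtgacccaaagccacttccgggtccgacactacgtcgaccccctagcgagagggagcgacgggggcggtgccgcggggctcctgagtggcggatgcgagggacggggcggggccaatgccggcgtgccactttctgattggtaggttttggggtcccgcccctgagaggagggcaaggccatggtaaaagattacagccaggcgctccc

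After MGO, 8 of the 10 genes rose, JDP2 fell, and CEBPG did not pass the threshold (edgeR quasi-likelihood test, adjusted p under 0.05 over all genes tested). Among all genes tested, 38.8% rose and 40.5% fell. The median log2 fold change of the 10 genes was 1.28, against −0.02 for all genes tested. A rise of 1 or more on the log2 scale was seen for 6 of the 10 genes, against 20.9% of all genes. The MGO and Control libraries did not overlap for 9 of the 10 genes, where 81.5% of all genes tested also did not overlap, so separation of the groups is not particular to these genes. With library size alone as the scaling, 7 of the 10 rose and 2 fell, beside 5673 raised and 12885 lowered among all genes in place of 8964 and 9362.

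**Figure D1:**
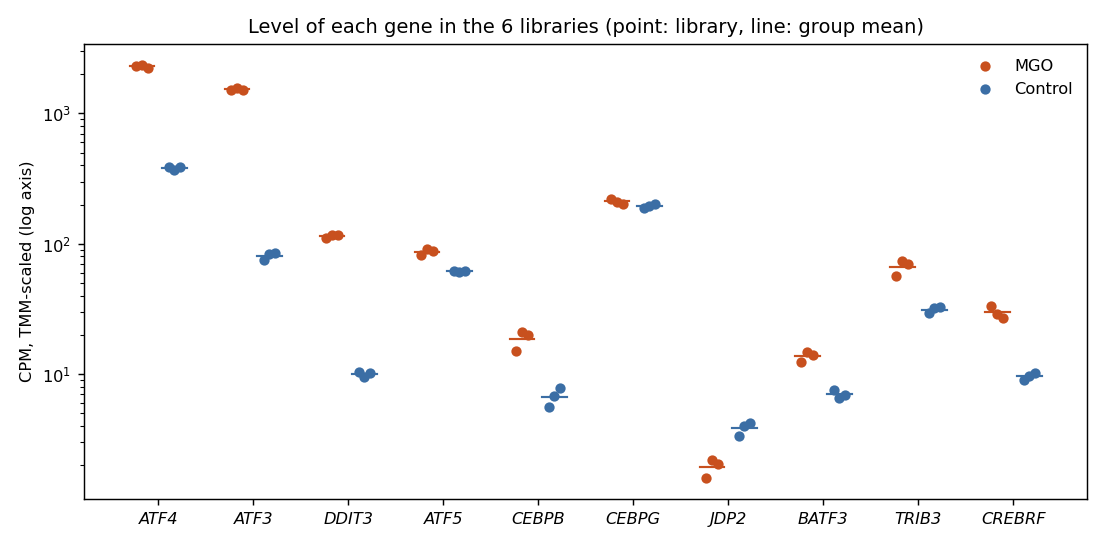
CPM (log axis) of each of the 10 genes in the 3 MGO libraries (left, orange) and 3 Control libraries (right, blue), with points for libraries and lines for group means. The groups separate for all genes except CEBPG, and JDP2 is the gene with MGO points below the Control points.

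ATF4, the central effector of the ISR, lies on chromosome 22 (39519695 to 39522685 in GENCODE release 29, GRCh38). It had 2299.6, 2363.5 and 2245.5 CPM in the MGO libraries, against 390.05, 371 and 388 CPM in the Control libraries. All MGO libraries stood about 6-fold above all Control libraries, with a log2 fold change of 2.59 (SE 0.06, edgeR adjusted p = 2.06e-11). Its log2 fold change ranked 440 of the genes tested, counted from the largest rise. The processed pseudogene ATF4P3 (chromosome 17) followed it at a far lower level, with 55, 67 and 67 counts in MGO and 14, 13 and 24 in Control (log2 fold change 2.46, SE 0.26). In the same libraries ATF4 itself had 252993, 267068 and 257368 counts in MGO and 55594, 70181 and 67411 in Control. Sharing of reads between ATF4 and its copies was not tested.

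ATF3, a stress-induced CREB/ATF factor that often represses its targets, lies on chromosome 1 (212565334 to 212620777). It had 1508, 1570.5 and 1506 CPM in MGO, against 74.8, 83.6 and 84.4 CPM in Control. This was the largest rise of the 10 genes, with a log2 fold change of 4.24 (SE 0.08, adjusted p = 3.94e-12), or 18.9-fold, and ranked 52 among all genes tested. The noncoding gene ENSG00000260805, which starts 5.6 kb before ATF3, rose by 2.37 on the log2 scale (SE 0.10) to 4.82 CPM in MGO, against 0.936 CPM in Control.

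DDIT3 encodes CHOP, a C/EBP-like factor that dimerises with other C/EBP proteins and favours cell death under lasting stress. The gene lies on chromosome 12 (57516588 to 57521737, minus strand). It had 111, 117 and 117 CPM in MGO, against 10.4, 9.48 and 10.3 CPM in Control (log2 fold change 3.52, SE 0.07, adjusted p = 8.48e-12). The 2 groups were more than 10-fold apart, and each was tight. DDIT3 overlaps the ends of MARS1 and MBD6 on the other strand, and the sources used here do not give the strand setting of the counting. MARS1, the methionyl-tRNA synthetase gene, had a log2 fold change of 0.35 and MBD6 of −1.74. Sharing of reads between DDIT3 and these genes was not tested. MIR616, within DDIT3 on the same strand, went with it at 3.04 and 431 counts over the 3 MGO libraries, against 78 over the 3 Control libraries. Such reads cannot be told apart from DDIT3 pre-mRNA in this table.

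ATF5, a CREB/ATF factor linked to the mitochondrial unfolded protein response whose translation is controlled like that of ATF4, rose least. It had 82.4, 90.3 and 88.1 CPM in MGO, against 61.6, 61.1 and 62.3 CPM in Control, a log2 fold change of 0.50 (SE 0.06, adjusted p = 8.28e-06). This call rested on the scaling, since the value was −0.032 under library size alone (adjusted p = 0.62), and it was 0.17 after removing each library's trend on GC content, transcript length and gene span. ATF5 also overlaps NUP62 and IL4I1 on the other strand, at log2 fold changes of −0.10 and 0.15 that did not pass the threshold.

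The C/EBP factors divided. CEBPB, a factor of inflammatory and ER stress programmes, had 15.1, 21.0 and 19.8 CPM in MGO, against 5.56, 6.85 and 7.78 CPM in Control (log2 fold change 1.47, SE 0.14, adjusted p = 5.98e-07). Every MGO library was above every Control library, with the widest relative spread of the raised genes. Its antisense neighbour CEBPB-AS1, which overlaps it by 765 bases, fell, with 89, 88 and 87 counts in MGO and 152, 218 and 186 in Control (log2 fold change −0.49, SE 0.13, adjusted p = 0.00469).

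CEBPG, a C/EBP protein without a strong activation domain that pairs with ATF4 at CARE sites, had 222, 209 and 202 CPM in MGO, against 189, 196 and 203 CPM in Control. The groups overlapped and the log2 fold change of 0.11 (SE 0.06) did not pass the threshold (edgeR adjusted p = 0.139). Its sign and call moved with the scaling, from −0.42 under library size alone (adjusted p = 0.000139) to 0.28 with upper quartile factors (adjusted p = 0.00108) and 0.53 with that trend removed (adjusted p = 3e-07). CEBPG has the longest transcripts of the 10 genes, with a median of 3977 nt. Of the other tested C/EBP genes, CEBPA rose by 0.62 (SE 0.12) and CEBPD by 1.44 (SE 0.15).

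JDP2, a bZIP repressor that binds CRE and AP-1 sites with JUN and ATF2, was the gene that fell. It had 1.59, 2.20 and 2.04 CPM in MGO, against 3.35, 4.02 and 4.23 CPM in Control, which were 175, 249 and 234 counts against 477, 760 and 734. Every MGO library lay below every Control library, at a log2 fold change of −0.99 (SE 0.14, adjusted p = 2.48e-05). The head-to-head antisense gene JDP2-AS1 fell with it, from a lower level, with 26, 20 and 11 counts in MGO and 93, 129 and 144 in Control (log2 fold change −2.09, SE 0.26, adjusted p = 9.72e-06). BATF3, a small AP-1 partner best known in dendritic cell development, had 12.4, 14.7 and 14.0 CPM in MGO, against 7.60, 6.59 and 6.95 CPM in Control (log2 fold change 0.96, SE 0.09, adjusted p = 4.83e-07). BATF3 stood at 0.38 (adjusted p = 0.000103) with the length, span and GC trend removed, and its transcripts have a median length of 980 nt.

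TRIB3, a pseudokinase induced by ATF4 and CHOP that binds ATF4 and dampens its activity, had 57.0, 73.2 and 69.7 CPM in MGO, against 29.4, 31.9 and 32.5 CPM in Control (log2 fold change 1.09, SE 0.09, adjusted p = 1.94e-07). CREBRF, a bZIP regulator that promotes degradation of the ER stress factor CREB3, had 33.2, 29.1 and 27.0 CPM in MGO, against 9.04, 9.66 and 10.3 CPM in Control (log2 fold change 1.62, SE 0.09, adjusted p = 3.75e-09). CREBRF stood at 1.94 with the length, span and GC trend removed. Within the MGO group, replicate 1 was the lowest library for CEBPB, TRIB3, BATF3, ATF5, JDP2 and DDIT3, whose transcripts have 50.1 to 66.2% GC, and the highest for CREBRF and CEBPG, with 40.3 and 41.9% GC. ATF4 and ATF3, at 55.1 and 51.3% GC, were lowest in MGO replicate 3. Without MGO replicate 1 the log2 fold change of TRIB3 was 1.197 (SE 0.051).

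**Figure D2:**
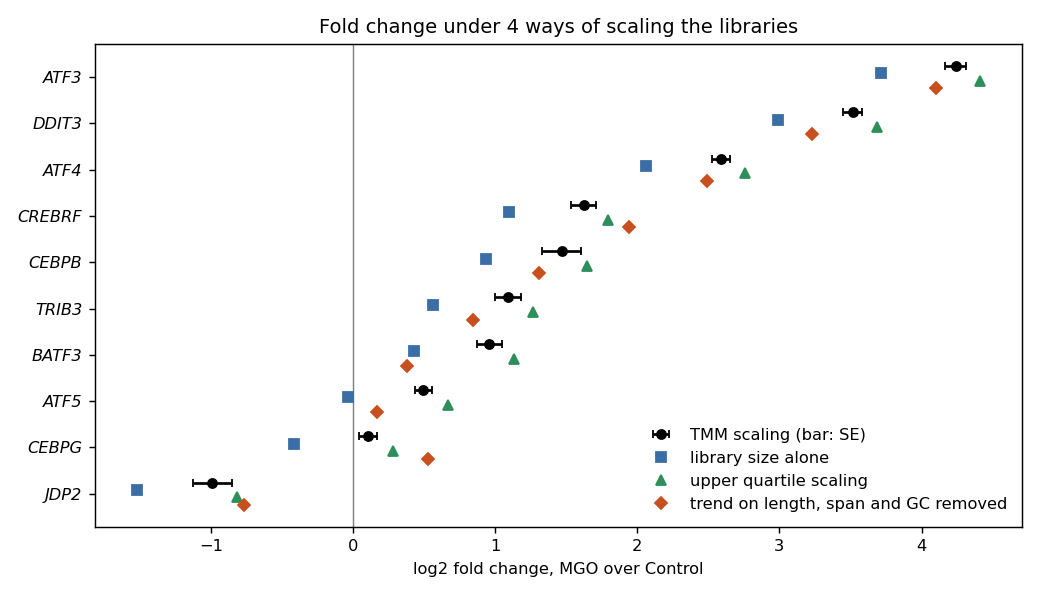
Log2 fold change of MGO over Control (x axis) for each of the 10 genes under 4 ways of scaling: TMM (black, bar is the SE), library size alone (blue), upper quartile (green) and TMM after removal of the trend on GC content, transcript length and span (orange). ATF3, DDIT3 and ATF4 stay above 2 in each, whereas ATF5 and CEBPG cross 0 under library size alone, at −0.032 and −0.42.

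Ratios taken within a library do not depend on scaling between libraries, so each gene was set against ATF4 in the same library. The log2 ratio of ATF3 to ATF4 counts was −0.61, −0.59 and −0.58 in MGO, against −2.38, −2.15 and −2.20 in Control, a difference of 1.65. That of DDIT3 to ATF4 was −4.37, −4.34 and −4.27 in MGO, against −5.23, −5.29 and −5.24 in Control, a difference of 0.93. Both genes gained on ATF4 in every MGO library relative to every Control library. The other 7 genes lost ground to ATF4, with differences of −0.97 for CREBRF, −1.12 for CEBPB, −1.503 for TRIB3, −1.63 for BATF3, −2.09 for ATF5, −2.48 for CEBPG and −3.58 for JDP2. The groups did not overlap for any of the 9 ratios, but the same held for 96.5% of all other genes tested, so this separation says nothing particular about the members. All MGO libraries lay below all Control libraries in the ratio to ATF4 for 95.5% of genes and above them for 0.982%. Each exact two-sided permutation test gave p = 0.1, the smallest that 3 against 3 libraries allow, so none passes 0.05 even before adjustment.

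Levels were compared between genes as CPM per kb of the median annotated transcript. In MGO, ATF4 (1206 ± 30.9) and ATF3 (1101 ± 26.4) led, followed by DDIT3 (122 ± 3.41), ATF5 (53.1 ± 2.48), CEBPG (53.1 ± 2.59), TRIB3 (33.1 ± 4.24), BATF3 (14.0 ± 1.17), CREBRF (12.1 ± 1.29), CEBPB (9.53 ± 1.60) and JDP2 (0.711 ± 0.116). ATF5 and CEBPG overlapped in MGO, as did BATF3 and CREBRF. In Control the order was ATF4 (201 ± 5.49), ATF3 (58.3 ± 3.81), CEBPG (49.3 ± 1.82), ATF5 (37.7 ± 0.366), TRIB3 (15.5 ± 0.806), DDIT3 (10.7 ± 0.524), BATF3 (7.19 ± 0.520), CREBRF (3.92 ± 0.251), CEBPB (3.44 ± 0.571) and JDP2 (1.41 ± 0.168), where CREBRF and CEBPB overlapped. DDIT3 thus ranked 3 in MGO and 6 in Control. Among all genes tested with a length, ATF3 stood at the 99.5 percentile of level in MGO and the 94.3 percentile in Control, and DDIT3 at the 95.5 and 70.5 percentiles.

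ATF4 made up 46.7, 46.2 and 45.9% of the summed level of the 10 genes per kb in MGO, against 53.1, 50.8 and 51.2% in Control. ATF3 made up 42.2, 42.3 and 42.4% in MGO, against 14.0, 15.7 and 15.3% in Control. The level of ATF4 per kb was 1.11, 1.09 and 1.08 times that of ATF3 in MGO, against 3.79, 3.23 and 3.34 times in Control. CEBPG made up 1.97 to 2.17% in MGO, against 12.4 to 12.9% in Control. ATF3 has transcripts of several lengths, so the nearness of ATF3 to ATF4 in MGO rests on the median length of 1387.5 nt used for it.

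**Figure D3:**
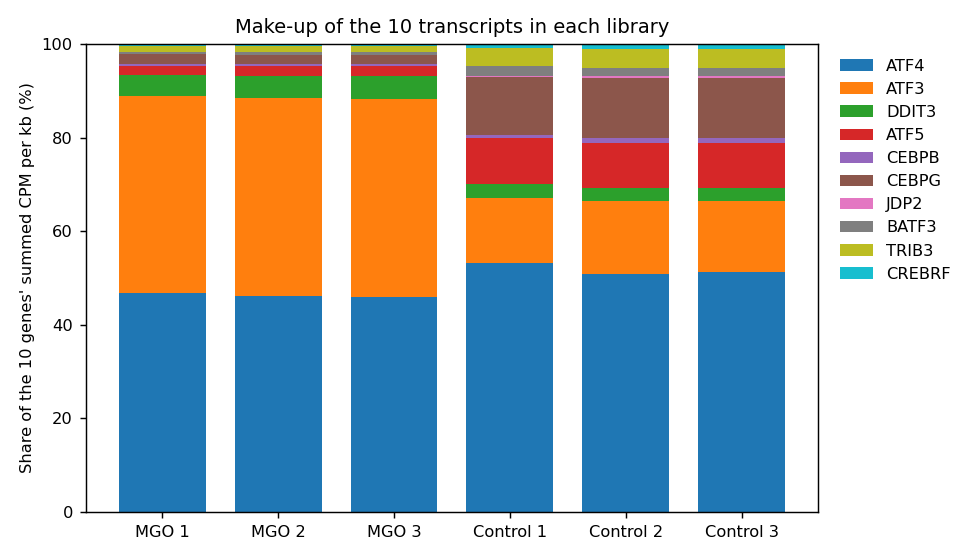
Share (%) of the summed CPM per kb of the 10 genes taken by each gene, in the 3 MGO libraries (left) and the 3 Control libraries (right). ATF4 and ATF3 together take 88.3 to 88.9% in MGO and 66.5 to 67.2% in Control.

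The members' fold changes were also set beside transcript length, which fold changes of all genes followed with a Spearman rho of −0.37 across 21734 genes; genes are not independent replicates, and all share the same 6 libraries. ATF3, DDIT3 and ATF4, with median transcript lengths of 1387.5, 940 and 1910 nt, had log2 fold changes of 4.10, 3.23 and 2.49 with the trend on length, span and GC removed. After that removal 9 of the 10 genes rose, CEBPG being the gene added, beside 43.7% of all genes. JDP2 stayed lowered, at −0.77 (adjusted p = 7.01e-05).

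**Figure D4:**
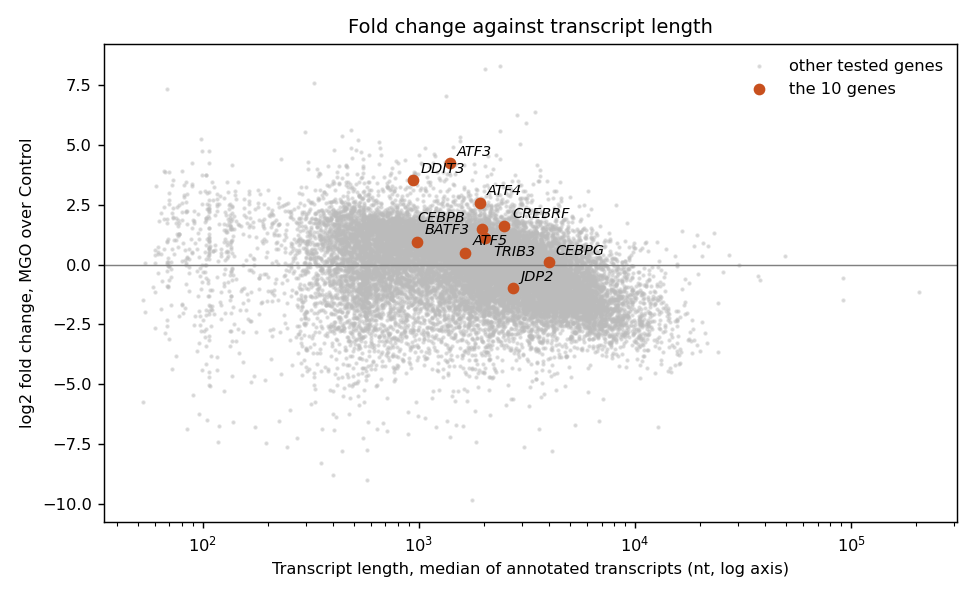
Log2 fold change of MGO over Control (y axis) against transcript length in nt (log axis) for all tested genes with a length (grey) and the 10 genes (orange). ATF3, DDIT3 and ATF4 stand at the 99.8, 99.4 and 98.1 percentiles of log2 fold change over all genes tested. JDP2 lies below 0 at 2737.5 nt.

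Among the other bZIP factors, 9 of 15 tested CREB/ATF, BATF and C/EBP genes were higher in MGO and 5 lower past the threshold, with a median of 0.57, where 38.8% of all genes rose and 40.5% fell. CREB5 rose by 2.21 (SE 0.07) to 325 ± 19.1 CPM in MGO, against 70.0 ± 4.75 in Control, and CREB3, the factor whose turnover CREBRF promotes, rose by 1.13 (SE 0.06). CREB3L2 (−2.13), CREB1 (−1.43) and ATF7 (−1.22) fell, although CREB1 stood at 0.065 with the length, span and GC trend removed. There 3 rather than 5 of the 15 genes fell, beside 8045 rather than 9362 of all genes tested. Under library size alone 4 of these 15 genes rose, near the 24.5% of all genes that rose there. Of 24 AP-1, MAF, CNC, PAR and other bZIP genes, 18 rose and 6 fell (median 1.496), beside the same shares of all genes. FOS (7.02), FOSB (6.38) and MAFF (5.56) led the rises, all above ATF3, and HLF (−1.82), TEF (−1.15) and NFE2L1 (−0.96) led the falls.

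Upstream of ATF4, 10 of 15 genes for eIF2 kinases, phosphatase subunits, eIF2 and its exchange factor eIF2B rose and 5 fell (median 0.82), where 38.8% of all genes tested rose and 40.5% fell. The ER-resident kinase PERK, encoded by EIF2AK3, had 103, 87.5 and 88.1 CPM in MGO, against 32.2, 35.2 and 35.5 CPM in Control (log2 fold change 1.44, SE 0.08). The genes of the amino acid sensing kinase GCN2, EIF2AK4 (−1.86), and of the double-stranded RNA kinase PKR, EIF2AK2 (−1.68), fell. The remaining eIF2 kinase gene, EIF2AK1, also fell, at −0.70 (SE 0.06), with 136 CPM in MGO and 221 CPM in Control. PPP1R15A, the inducible subunit that directs dephosphorylation of eIF2α, rose by 4.40 and EIF2B2 by 2.26. DNAJC3, an inhibitor of eIF2 kinases, fell by 0.71 but stood at 0.21 with the trend removed. There 3 of the 15 genes fell in place of 5, beside 8045 in place of 9362 among all genes tested.

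Of the 36 listed targets of ATF4 and CHOP, 34 were tested: 16 rose and 13 fell past the threshold and 5 did not reach it, with a median log2 fold change of 0.13. These counts were near the shares over all genes, of which 38.8% rose and 40.5% fell. PPP1R15A (4.40), SLC3A2 (2.85), an amino acid transporter heavy chain, and GDF15 (1.69), a secreted stress hormone at 0.926 ± 0.113 CPM in MGO and 0.287 ± 0.0247 CPM in Control, rose most. The cystine transporter gene SLC7A11 (−3.37), the mitochondrial folate enzyme gene ALDH1L2 (−2.66) and the glutathione-degrading enzyme gene CHAC1 (−2.28) fell most. ALDH1L2 averaged 0.317 CPM in MGO and 2.01 CPM in Control. SLC7A11 and ALDH1L2 have median transcript lengths of 9645 and 7547 nt, where all genes over 4 kb had a median log2 fold change of −1.17. CHAC1 has 1425 nt. The part of length in these falls was not tested. Under library size alone 20 rather than 13 of these targets fell, beside 12885 rather than 9362 of all 23109 genes tested.

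Of 12 genes for partners of these factors and for their turnover, 2 rose and 9 fell (median −0.61), again beside 38.8% raised and 40.5% lowered among all genes. TRIB1, a TRIB3 paralogue, rose by 1.39 (SE 0.08), whereas TRIB2 had a log2 fold change of −1.42 (SE 0.06). COP1, the ubiquitin ligase that tribbles proteins recruit, rose by 0.27 (SE 0.06). The acetyltransferase genes KAT2B (−1.90) and CREBBP (−1.54) and the ubiquitin ligase subunit gene BTRC (−1.89), whose product marks ATF4 for degradation, fell. With the length, span and GC trend removed 7 of these 12 genes rose and 4 fell. Among all 23109 genes tested, 10093 rose and 8045 fell there. CREBBP stood at 0.205 in that setting (edgeR adjusted p = 0.0233). Among 11 tested markers of epithelial, fibroblast and blood cells, 7 rose and 2 fell, beside 38.8% raised and 40.5% lowered among all genes. LYZ (2.56), KRT18 (1.88) and KRT19 (1.72) led the rises, and COL1A1 (−1.70) and CDH1 (−1.56) fell. KRT18 and KRT19 already stood at 95.8 and 91.2 CPM in Control, so they are not markers of other cells here. LYZ averaged 0.286 CPM in MGO and did not pass the threshold once MGO replicate 1 was left out (0.96, adjusted p = 0.0739).

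ATF3 and BATF3 are neighbours on chromosome 1, with starts 134.7 kb apart. Of 9 other tested genes with a start within 250 kb of that of ATF3, BATF3 included, 6 rose and 3 did not pass the threshold, with a median of 0.56. Among all genes tested 38.8% rose and 40.5% fell, and the counts around ATF3, BATF3 and JDP2 were not tested against these shares. NENF, which encodes a secreted neurotrophic protein, rose by 1.86 (SE 0.09), PACC1 by 0.57, TATDN3 by 0.56 and NSL1 by 0.52, and each was below ATF3 itself. Under library size alone PACC1 (0.048), TATDN3 (0.037) and NSL1 (−0.007) did not pass the threshold. Around BATF3, 5 of 8 such genes rose, ATF3 included, and FLVCR1 fell, at −0.15 (edgeR adjusted p = 0.0403). That call was lost without MGO replicate 2 (adjusted p = 0.119) or 3 (0.115), without Control replicate 2 (0.127) or 3 (0.139), with a replicate block (0.102) and with RLE factors (0.0549). FLVCR1 stood at 0.855 after removal of the length, span and GC trend (adjusted p = 5.93e-10). JDP2 lies 148.9 kb from FOS on chromosome 14. FOS rose by 7.02 while JDP2 and JDP2-AS1 fell, and around JDP2 4 of 7 tested genes rose and 2 fell.

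**Figure D5:**
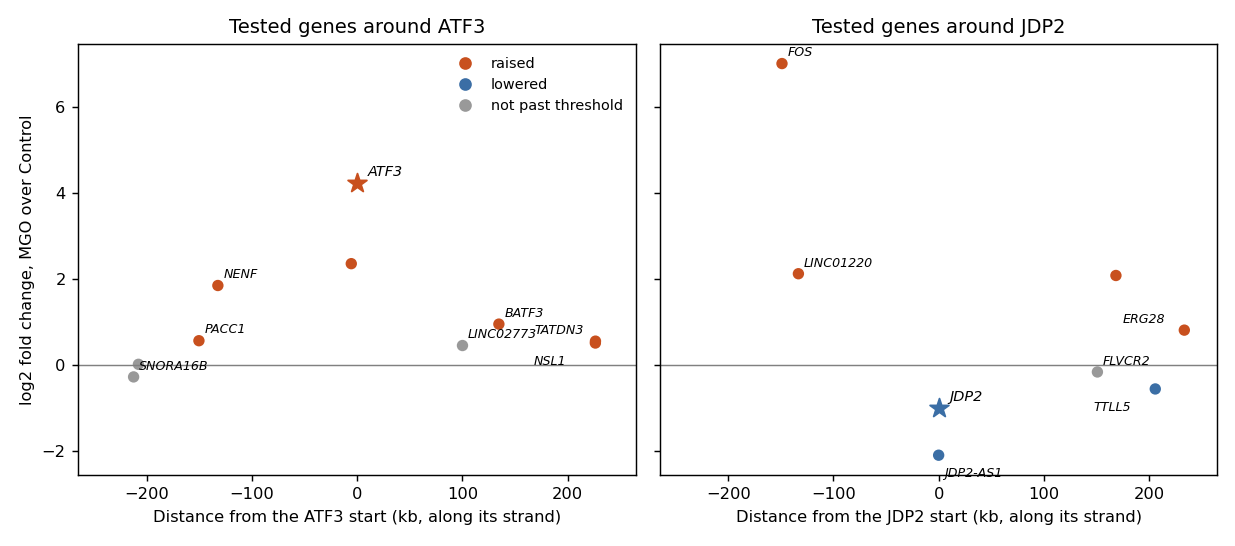
Log2 fold change of MGO over Control (y axis) of tested genes against the distance in kb of their start from that of ATF3 (left panel) or JDP2 (right panel), shown as a star at 0. ATF3 at 4.24 is the highest point in its window, whereas JDP2 at −0.99 lies below FOS at 7.02.

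The genes with the profile most like a member over the 6 libraries were taken by Euclidean distance of log2(CPM + 0.5) values centred per gene, leaving out genes without a symbol or with a mean under 1 CPM. Nearest to ATF4 were GADD45A (distance 0.094), SMG1P2 (0.096) and TOE1 (0.096). Nearest to ATF3 were PPP1R15A (0.236), DUSP1 (0.237) and FOSL1 (0.294), and nearest to DDIT3 were UBALD2 (0.128), ADM (0.153) and SHLD3 (0.163). The distances mostly match the size of the rise between the 2 groups on the log2(CPM + 0.5) scale, on which ATF4 rose by 2.59, GADD45A by 2.65 and SMG1P2 by 2.57. The match of SMG1P2 rests on the added 0.5, since it had 1.04 CPM in Control and a fitted log2 fold change of 3.06.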

How the data were processed

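The authors deposited raw counts per gene, and a count is the number of reads assigned to a gene. The submitters' processing notes name STAR 2.7.0a and featureCounts 2.0.6 for build hg38, among other tools; annotation, strand setting and handling of multi-mapping reads were not given in the sources used here. The test was edgeR 4.0.16 under R 4.3.3 (genes kept by filterByExpr, TMM scaling, quasi-likelihood test of MGO against Control, Benjamini-Hochberg adjustment over 23109 genes, threshold 0.05). SE is the absolute log2 fold change over the square root of F. Transcript lengths, GC content and gene positions came from GENCODE release 29 (GRCh38, the same assembly as hg38). Steps were tested on simulated data. The members and lists were chosen with earlier results of these data known. Named genes were the members, GLO1, and the 3 largest rises and falls past the threshold in each list. Pseudogene and antisense rows, neighbours within 250 kb and the 3 nearest profiles were also named. TRIB2, CEBPA, KRT8, LUM, MARS1, MBD6, MIR616, NUP62, IL4I1 and EIF2AK1 were named with their values known. No replicates of a group agreed within sampling noise (chi-square over degrees of freedom at least 3.77).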

Additional observations from a re-analysis of the deposited data

How the results depend on the processing

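The counts of 8 raised and 1 lowered among the 10 genes were unchanged without any single library, with RLE size factors, other filters, DESeq2, limma-voom, robust dispersions, mitochondrial genes left out or a test against a 1.2-fold change. Library size alone shifted the median of all genes by −0.53 and gave 5673 raised and 12885 lowered genes among all tested. It gave 2 lowered members, CEBPG at −0.42 and JDP2 at −1.52, while ATF5 at −0.032 did not pass the threshold. It put COP1 at −0.26 and NSL1 at −0.007. It also gave 20 lowered targets of ATF4 and CHOP, 4 raised CREB/ATF, BATF and C/EBP genes, 1 raised partner gene and 4 raised markers. Upper quartile scaling, which shifted the median by 0.17, put CEBPG at 0.28 and FLVCR1 at 0.023. Removal of the length, span and GC trend put CEBPG at 0.53, CREB1 at 0.065, CREBBP at 0.205, DNAJC3 at 0.21, FLVCR1 at 0.855 and TTLL5 at 0.011. It left 3 lowered CREB/ATF, BATF and C/EBP genes, 3 lowered eIF2 genes, and 7 raised and 4 lowered partner genes. Among all genes tested it gave 10093 raised and 8045 lowered. The test against 1.2-fold left 1 raised partner gene, the 1 CPM filter 4 raised markers, and no filter 4 lowered markers. The causes were not tested. Leaving out each library in turn kept every member's direction and call, with ranges of 2.56 to 2.61 for ATF4, 4.18 to 4.26 for ATF3 and −1.09 to −0.86 for JDP2.

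Deviations of same-numbered libraries from their group means correlated over all genes tested at 0.023, −0.041 and 0.044. With 3 libraries in each group these values cannot decide whether the replicates were handled in pairs, and the labels do not say. With a replicate block, 8 members rose and 1 fell, beside 8869 raised and 9299 lowered genes in all. MGO replicate 1 correlated more with Control replicate 2 (0.034) than with its own number.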

Other observations

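Counts of tested genes that moved within 250 kb of the other members are given beside the shares over all genes, 38.8% raised and 40.5% lowered, and no count was tested against them. Of 8 such genes near CREBRF, 5 rose and 3 did not pass the threshold (median log2 fold change 1.08), and of 8 near CEBPB 5 rose and 2 fell. Near CEBPG, the C/EBP gene CEBPA, at 25.8 CPM in MGO and 16.7 CPM in Control, rose by 0.62, while its divergent transcript CEBPA-DT fell by 1.48 on the log2 scale. Around DDIT3 11 of 23 genes rose and 8 fell, around ATF5 12 of 22 rose and 3 fell, around ATF4 5 of 9 rose and 3 fell, and around TRIB3 3 of 9 rose and 3 fell.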
